A study of Mus musculus with 6 samples.

Results

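The genes described here encode the subunits and activators of the proteasome. Liver transcripts came from C57BL/6 mice, an inbred laboratory strain, kept for 12 weeks on either a Western-style diet rich in fat or a low-fat diet, with 3 Affymetrix arrays per diet. The members are all probe sets, the groups of short probes that read 1 transcript each, whose single gene symbol in the platform's gene table starts with Psma, Psmb, Psmc, Psmd or Psme, without the immunoproteasome genes Psmb8, Psmb9 and Psmb10. This gave 50 of the 12488 probe sets on the array, for 39 of the 8252 genes that had a probe set of their own. The probe sets comprised 7 probe sets for 7 core alpha genes, 12 for 7 core beta genes, 10 for 7 genes named as ATPases, 16 for 14 non-ATPase genes of the lid and base, and 5 for 4 genes named as activators. Of these genes, Psmc3ip and Psme3ip1 are named after a subunit that their proteins bind and are not subunits themselves. The activator gene Psme2 was read only by probe sets that also carry the symbol Psme2b, and these lie outside the rule. Array titles gave the diet and array number. The labels give no age, sex or genotype beyond the strain, and do not say whether an array held 1 mouse or a pool, so p-values measure the spread between these arrays. A keyword of the labels names LDL receptor deficiency, but no array is labelled with it.

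The proteasome is the main protease of the cytosol and nucleus and degrades proteins tagged with chains of ubiquitin. Its barrel-shaped core is made of rings of alpha subunits, which form the gate, and rings of beta subunits, some of which carry the protease sites. A regulatory particle caps the barrel: its base holds a ring of ATPases that unfold substrates, and its lid holds the enzyme that removes ubiquitin. Other caps, the activators, open the gate without ubiquitin. Proteasome genes are transcribed in all tissues, liver included, and a known route for raising them together is the transcription factor Nfe2l1, which binds antioxidant response elements.

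Promoter sequences from RefSeq (mouse build GRCm38.p6) were available for 33 of the 39 genes, in 36 windows, and were searched over the 250 bases before each annotated start. The antioxidant response element core, TGACNNNGC on either strand, was present in 5 of the 36 member windows (13.9%) and in 10.2% of all 32851 windows. The CCAAT box, searched as CCAAT on both strands, was present in 14 of the 36 (38.9%) and in 33.8% of all windows. The members' shares were near those of all promoters. A match is a run of letters, not a measured binding site. The windows with the antioxidant response element core belonged to Psmb5, Psmb6, Psmc6, Psmd9 and Psmd12. Shown here are the windows of Psma5, Psmd4 and Psmd12, which had the smallest p-values among members with a window, and of the catalytic gene Psmb5, whose 2 probe sets differed in sign. Capitals mark matches to either motif, and each sequence runs 5′ to 3′ on the gene's strand and ends at the base before the start.
Psmd4 (chr3:95042615-95042864, minus strand): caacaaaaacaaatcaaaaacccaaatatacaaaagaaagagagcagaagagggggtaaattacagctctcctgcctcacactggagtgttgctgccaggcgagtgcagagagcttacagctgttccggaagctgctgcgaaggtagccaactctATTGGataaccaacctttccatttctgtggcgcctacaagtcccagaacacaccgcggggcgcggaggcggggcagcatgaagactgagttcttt
Psma5 (chr3:108256676-108256925, plus strand): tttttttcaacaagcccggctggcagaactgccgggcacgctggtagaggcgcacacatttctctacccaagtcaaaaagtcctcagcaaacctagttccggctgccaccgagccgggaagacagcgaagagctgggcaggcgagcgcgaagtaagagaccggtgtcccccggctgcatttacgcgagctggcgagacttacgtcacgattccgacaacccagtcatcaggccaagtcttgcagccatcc
Psmd12 (chr11:107479278-107479527, plus strand): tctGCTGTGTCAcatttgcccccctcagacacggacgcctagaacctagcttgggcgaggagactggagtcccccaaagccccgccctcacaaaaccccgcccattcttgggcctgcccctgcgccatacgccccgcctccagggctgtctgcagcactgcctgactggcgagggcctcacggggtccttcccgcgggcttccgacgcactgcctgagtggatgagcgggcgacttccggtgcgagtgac
Psmb5 (chr14:54617996-54618245, minus strand): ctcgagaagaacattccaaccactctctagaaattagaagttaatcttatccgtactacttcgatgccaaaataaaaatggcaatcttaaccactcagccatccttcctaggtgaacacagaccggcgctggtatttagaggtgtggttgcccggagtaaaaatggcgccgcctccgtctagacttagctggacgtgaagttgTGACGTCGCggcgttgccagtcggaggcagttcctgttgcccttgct
The Psmd4 window held a CCAAT box beginning 95 bases before the start and the Psmb5 window an antioxidant response element core beginning 47 bases before it. In Psmd12 that core lay 247 bases before the start, at the far end of the window, and Psma5 held neither motif.

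The diets gave no proteasome transcript that passed the test. Of the 50 probe sets, 45, for 37 genes, were bright enough to test, meaning above an intensity of 68.9 on at least 3 of the 6 arrays. None of the 45 passed an adjusted p of 0.05 in limma, a linear model fitted over all 8950 tested probe sets, against 0.827% of all tested. The smallest adjusted p of a member was 0.307. At an unadjusted p under 0.05, 4 of the 45 were higher on the high-fat diet (4.82% of all tested) and 0 were lower (4.26% of all tested). The differences were small: all 45 lay within 0.5 of 0 on the log2 scale, from -0.48 to 0.50. Of the 45, 31 (68.9%) were above 0, against 50.5% of all tested, and their median log2 difference was 0.06, against 0.0026 over all tested probe sets. That median was 0.018 when low-fat array 1 was left out, 0.033 when low-fat array 3 was and 0.14 when low-fat array 2 was.

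The precision of the arrays sets a bound on what could be seen. The 95% intervals of the differences reached a median of 0.35 to either side on the log2 scale. For 43 of the 45 members the interval lay wholly inside a 2-fold change in either direction, and for 28 inside a 1.5-fold change. It lay inside a 1.2-fold change for only 1. The 2 members whose interval reached past 2-fold were dim, the dimmest probe set of Psmb1 and the only one of Psmd10. In simulated data at the spread of all tested probe sets the same test called 1.6% of those given a log2 change of 0.5. It called 32.3% of those given one of 1. At that spread, changes of the size measured here would mostly not be called. The members' own spread within a diet was smaller, with a median SD of 0.19 on the log2 scale against 0.27. The simulation was not run at the members' spread.

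**Figure D1:**
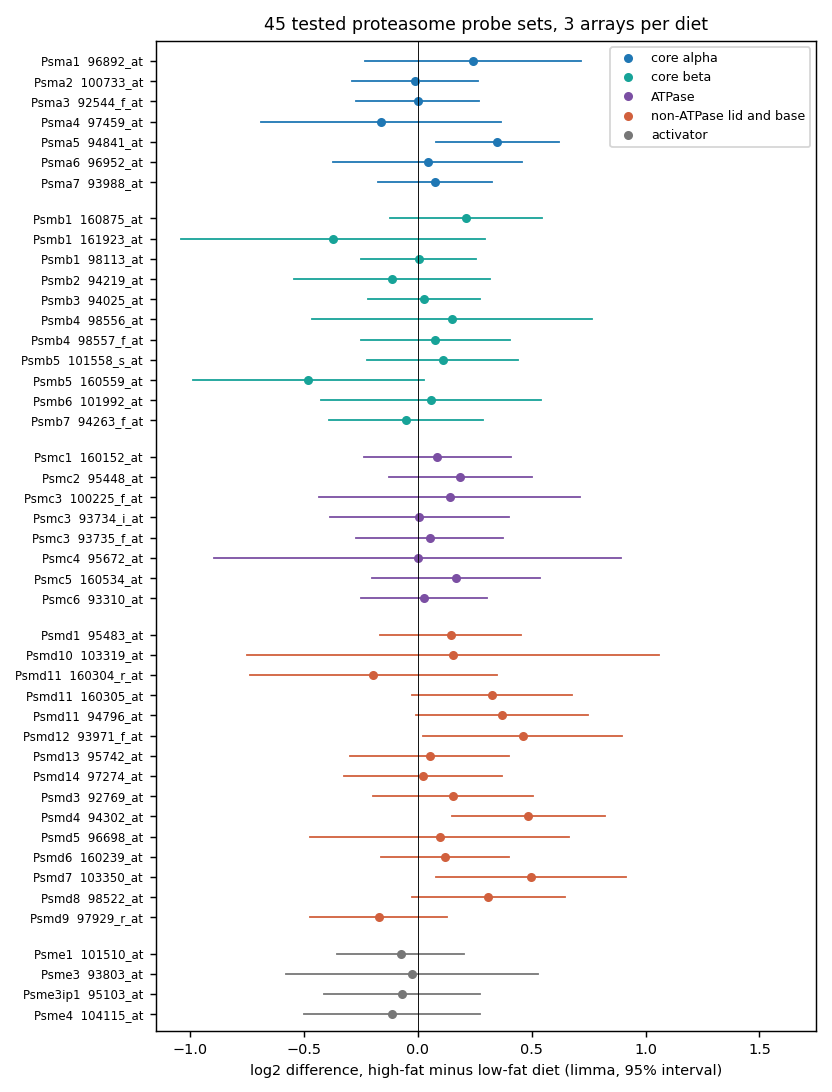
Log2 difference between the diets (x axis, high-fat minus low-fat) for each of the 45 tested proteasome probe sets (y axis, gene and probe set), coloured by class; points are limma estimates from 3 arrays per diet and lines their 95% intervals. The intervals of Psma5, Psmd4, Psmd7 and Psmd12 lie above 0, those of the other 41 include 0, and no member passed an adjusted p of 0.05.

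In the core alpha ring all 7 genes, Psma1 to Psma7, were measured with 1 probe set each. These proteins form the gate of the barrel. Their median log2 difference was 0.04, with 4 above 0 and 3 below. With 1 array left out that median ranged from 0.0059 (high-fat array 1 absent) to 0.14 (low-fat array 2 absent). It was 0.014 with low-fat array 3 absent and 0.094 with high-fat array 3 absent. Psma5 read 2066, 2324 and 1908 on high-fat arrays 1, 2 and 3 and 1713, 1650 and 1567 on low-fat arrays 1, 2 and 3. All high-fat arrays lay above all low-fat arrays. The means were 2099 ± 210 (SD, n = 3) and 1643 ± 73.3 (SD, n = 3). The fitted ratio was 1.27-fold with an adjusted p of 0.390 (limma), and its log2 difference of 0.35 ± 0.12 (SE) had a 95% interval from 0.08 to 0.62. High-fat arrays wholly above the low-fat arrays were found in 7.34% of all tested probe sets and in 4 of the 45 members (8.89%).

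Psma1 read 799, 664 and 825 on the high-fat arrays and 480, 663 and 830 on the low-fat arrays. The diets overlapped, and the lowest value was that of low-fat array 1. The log2 difference of Psma1 was 0.24, with an adjusted p of 0.833 in limma. Psma7 read 2212, 2171 and 2120 on the high-fat arrays and 1973, 2234 and 1963 on the low-fat arrays, a log2 difference of 0.08, and its highest value was on low-fat array 2. Psma2, Psma3 and Psma6 had log2 differences of -0.01, 0.00 and 0.04. Psma4, at -0.16, read 3589, 3143 and 2319 on the high-fat and 3787, 4121 and 2335 on the low-fat arrays. Its array 3 was the lowest on both diets, which was also so for Psma5, Psma6 and Psma7.

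The core beta genes Psmb1 to Psmb7 were read by 12 probe sets, of which 11 were tested. Their median log2 difference was 0.03, with 7 above 0 and 4 below, and the arrays of the diets overlapped for all 11. The median had no stable sign. Leaving out high-fat array 1 gave -0.033, and the median was also below 0 when low-fat array 1 (-0.03) or low-fat array 3 (-0.012) was absent. Leaving out array 2 of a diet raised it, to 0.059 for the high-fat and 0.065 for the low-fat one. The protease sites lie on the products of Psmb5, which cuts after hydrophobic residues, Psmb6, which cuts after acidic residues, and Psmb7, which cuts after basic residues. Psmb6 read 1846, 1395 and 1314 on the high-fat arrays and 1183, 1986 and 1271 on the low-fat arrays. Its log2 difference was 0.06, with a 95% interval from -0.42 to 0.54. Psmb7 read 1451, 1631 and 1382 on the high-fat and 1566, 1800 and 1286 on the low-fat arrays, with a log2 difference of -0.05 and an interval from -0.39 to 0.29. The range within each diet exceeded the difference between the diets for both genes.

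Psmb5 gave different values on its 2 probe sets. The probe set 101558_s_at, whose suffix marks probes shared between transcripts, read 2897, 2810 and 2372 on the high-fat and 2553, 2868 and 2095 on the low-fat arrays, a log2 difference of 0.11. The other, 160559_at, read 848, 478 and 530 on the high-fat arrays and 965, 761 and 795 on the low-fat arrays. On it high-fat arrays 2 and 3 lay below all low-fat arrays and high-fat array 1 did not. Its log2 difference was -0.48, the lowest of all members, with an adjusted p of 0.587 in limma. Without high-fat array 1 it was -0.73, with an adjusted p of 0.176 in limma, and without high-fat array 2 it was -0.32, with one of 0.875. The difference between the 2 probe sets was not tested. Psmb5 therefore has no settled direction in these data.

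Psmb1, a core subunit without a protease site, had 3 tested probe sets. The probe set 160875_at read 1111, 952 and 1125 on the high-fat and 832, 866 and 1064 on the low-fat arrays, a log2 difference of 0.21. The probe set 98113_at, the brightest of the 3, read 1848, 1610 and 1758 against 1758, 1713 and 1718, and its log2 difference was 0.0048. The dimmest, 161923_at, read 58.4, 113 and 66.4 against 83.7, 121 and 115, with high-fat arrays 1 and 3 under the intensity floor and set to it. Its log2 difference was -0.37. The diets overlapped on each. The remaining structural beta genes Psmb2, Psmb3 and Psmb4 had log2 differences of -0.11, 0.03 and, on 2 probe sets, 0.08 and 0.15. Another Psmb4 probe set lay under the floor on all arrays and was not tested.

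**Figure D2:**
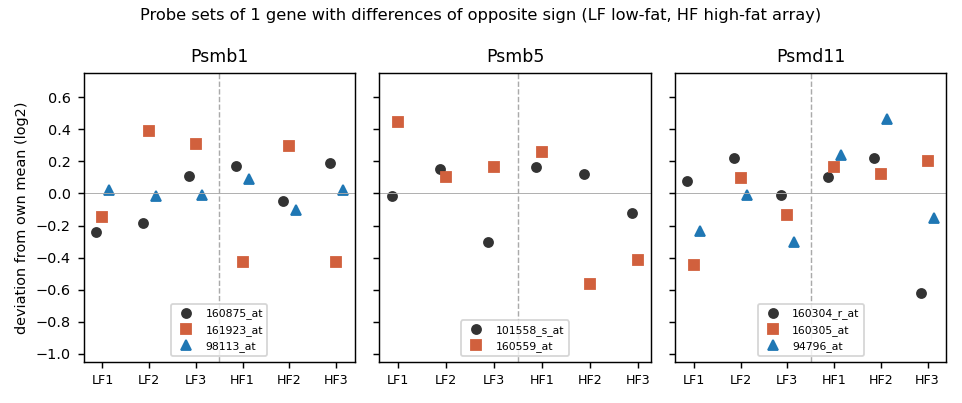
Log2 deviation of each array from the probe set's own mean over the 6 arrays (y axis) for the 3 genes whose tested probe sets had differences of opposite sign; the x axis gives low-fat (LF) and high-fat (HF) arrays 1 to 3, and symbols are probe sets. In Psmb5 the probe set 160559_at lies low on high-fat arrays 2 and 3, and in Psmd11 the probe set 160304_r_at lies low on high-fat array 3 while 160305_at and 94796_at lie lowest on a low-fat array.

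All 6 ATPase genes, Psmc1 to Psmc6, were tested, on 8 probe sets. Together their products form the ring that unfolds substrates and threads them into the core. Of the 8, 7 had a log2 difference above 0, and all lay between 0.00 and 0.19, with a median of 0.07. Leaving out low-fat array 1 lowered the median to 0.011, and leaving out array 2 raised it, to 0.11 for the high-fat and 0.15 for the low-fat one. Psmc2 had the highest. It read 1960, 1757 and 2110 on the high-fat and 1459, 1748 and 1927 on the low-fat arrays, a log2 difference of 0.19 with an adjusted p of 0.792 in limma. Psmc5 read 857, 850 and 849 on the high-fat arrays and 831, 864 and 608 on the low-fat arrays. Its difference of 0.17 rested on low-fat array 3, which lay below all the others. Psmc1 read 1078, 903 and 895 against 801, 948 and 957, a log2 difference of 0.09, and the diets overlapped.

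The 3 Psmc3 probe sets had differences of 0.14, 0.01 and 0.05, and all carry suffixes for shared or incomplete probes. Psmc6 stood at 0.03 and the dim Psmc4 at 0.00, with an interval from -0.89 to 0.89. High-fat array 1 of Psmc4 read 44.5, under the floor, and was set to it. With the floor at the 10th percentile the log2 difference of Psmc4 was -0.21. Psmc3ip, a recombination factor and not a proteasome subunit, lay under the floor on all arrays, as did a second probe set of Psmc5.

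The non-ATPase genes of the lid and base had the highest class median. Of 15 tested probe sets 13 (86.7%) had a log2 difference above 0, against 50.5% of all tested, and the median was 0.15. The ATPase class had a like share above 0, 7 of 8 (87.5%). The non-ATPase class held 3 of the 4 members with an unadjusted p under 0.05 in limma, Psmd4, Psmd7 and Psmd12. That was 20% of the 15, against 4.82% of all tested that were higher at this p. The non-ATPase median was 0.27 without low-fat array 2, and 0.052 without both arrays numbered 3. Whether the class differs from the other proteasome classes was not tested.

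In the base, Psmd4 encodes a receptor that binds ubiquitin chains through ubiquitin-interacting motifs. It read 2744, 3226 and 2263 on high-fat arrays 1, 2 and 3 and 1983, 2084 and 1765 on the low-fat arrays. The lowest high-fat array lay above the highest low-fat array, and array 3 was the lowest of each diet. The means were 2744 ± 482 (SD, n = 3) and 1944 ± 163 (SD, n = 3), a fitted ratio of 1.40-fold. The log2 difference was 0.49 ± 0.15 (SE), with a 95% interval from 0.15 to 0.82 and an adjusted p of 0.307 (limma). With each array left out in turn its log2 difference ran from 0.36 to 0.62 and its adjusted p from 0.118 to 0.653. Psmd1, the scaffold of the base, had a log2 difference of 0.15, and Psmd2, the other scaffold, lay under the floor on all arrays and was not tested.

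In the lid, all 8 genes were tested on 10 probe sets, with a median log2 difference of 0.23. Of the 10, 9 lay above 0, against 50.5% of all tested. This division of the class by place in the particle was made after the values were seen. Psmd7, a structural partner of the deubiquitinating subunit, read 1341, 1612 and 1218 on the high-fat and 1243, 946 and 796 on the low-fat arrays. High-fat array 3 lay below low-fat array 1, so the diets overlapped. The log2 difference of Psmd7 was 0.50 ± 0.19 (SE), the highest of all members, with an adjusted p of 0.437 in limma and a 95% interval from 0.08 to 0.92. Psmd12, a structural lid subunit, read 413, 534 and 509 on the high-fat and 334, 320 and 404 on the low-fat arrays. Its diets did not overlap, by the narrow gap between 413 and 404. The log2 difference of Psmd12 was 0.46 ± 0.19 (SE), with an adjusted p of 0.518 in limma, on a probe set marked as shared within a gene family.

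Psmd11, which holds lid and core together, had 3 tested probe sets. The probe set 160305_at read 1211, 1174 and 1240 on the high-fat arrays and 792, 1153 and 982 on the low-fat arrays, without overlap. The probe set 94796_at read 3613, 4210 and 2753 against 2593, 3032 and 2472, where high-fat array 3 lay below low-fat array 2. Their log2 differences were 0.32 and 0.37, with adjusted p-values of 0.600 and 0.563 in limma. With each array left out in turn the difference of 160305_at ran from 0.18, without low-fat array 1, to 0.45, without low-fat array 2. That of 94796_at ran from 0.23, without high-fat array 2, to 0.54, without high-fat array 3. The remaining one, 160304_r_at, read 478, 519 and 289 against 470, 519 and 441, a log2 difference of -0.19, which was 0.07 without high-fat array 3 and -0.35 without high-fat array 2. Its suffix marks relaxed rules of probe selection.

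Psmd14 encodes the deubiquitinating enzyme of the lid. It read 778, 788 and 983 on the high-fat and 742, 873 and 888 on the low-fat arrays, so the diets overlapped. Its log2 difference was 0.02, with a 95% interval from -0.32 to 0.37. Psmd8, a structural lid subunit, had a log2 difference of 0.31 with an adjusted p of 0.602 in limma. Psmd3, Psmd6 and Psmd13 stood at 0.15, 0.12 and 0.05.

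The remaining genes of this class, Psmd5, Psmd9 and Psmd10, encode chaperones that assemble the base and leave the finished particle. Psmd9 was the only member whose high-fat arrays all lay below its low-fat arrays, which held for 6.76% of all tested probe sets. It read 733, 875 and 810 on the high-fat and 946, 875 and 895 on the low-fat arrays, where array 2 of each diet read almost the same. The log2 difference of Psmd9 was -0.17, with an adjusted p of 0.804 in limma. Its probe set, 97929_r_at, carries the suffix that marks relaxed rules of probe selection. Psmd5 and Psmd10 had log2 differences of 0.10 and 0.16 and overlapped between the diets.

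**Figure D3:**
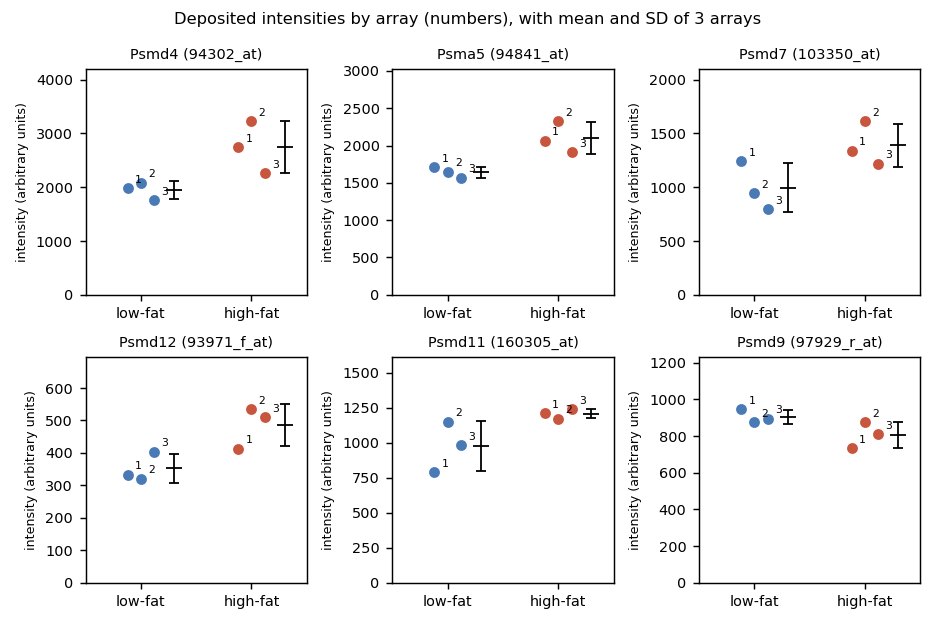
Deposited intensity (y axis, arbitrary units from 0) of 6 probe sets on the low-fat (blue) and high-fat (red) arrays; points are arrays with their numbers, and bars give the mean and SD of 3 arrays. Psmd4, Psma5, Psmd12 and Psmd11 (160305_at) have all high-fat arrays above all low-fat arrays, as do 7.34% of all tested probe sets. For Psmd11 the probe set without overlap was chosen, and the other tested Psmd11 probe sets overlap. Psmd7 overlaps, and Psmd9 has the reverse order. None of the 6 passed an adjusted p of 0.05 in limma.

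The genes named as activators had a median log2 difference of -0.07. All 4 tested probe sets, that of Psme3ip1 among them, lay below 0 by at most 0.11. The median was -0.14 without high-fat array 1 and -0.024 without high-fat array 2. Psme1 encodes a subunit of the interferon-inducible activator. Its tested probe set read 1558, 1259 and 1430 on the high-fat and 1462, 1455 and 1540 on the low-fat arrays, a log2 difference of -0.08 with a 95% interval from -0.36 to 0.21. A second Psme1 probe set lay under the floor on all arrays. Psme3, the nuclear activator, read 339, 547 and 441 against 568, 424 and 358, and its log2 difference was -0.03. Psme4, the large single-chain activator, read 1190, 911 and 1381 against 1162, 1171 and 1393, a log2 difference of -0.11. Psme3ip1, which encodes a protein that binds the nuclear activator, read 654, 571 and 528 against 586, 624 and 621, with a log2 difference of -0.07. The diets overlapped for each of these genes. Outside the rule, the probe set 100588_at, shared by Psme2 and Psme2b, read 1031, 934 and 993 against 1326, 1274 and 1025. Its diets overlapped, and its log2 difference was -0.29 with an adjusted p of 0.611 in limma. The dimmer 161938_r_at, shared by the same genes, had a log2 difference of 0.05.

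Across arrays, the members did not move as one block. Low-fat array 1 held the lowest value of 16 of the 45 tested members and low-fat array 3 that of 14, while low-fat array 2 held the highest value of 14. The median deviation of the members from their own means was -0.10, 0.06 and -0.03 on low-fat arrays 1, 2 and 3 and 0.09, 0.02 and 0.02 on the high-fat arrays. Low-fat array 2 thus lay above high-fat arrays 2 and 3. The core beta members stood highest on high-fat array 1 (0.17) and low-fat array 2 (0.15) and lowest on high-fat array 3 (-0.13) and low-fat array 3 (-0.09). The non-ATPase members stood lowest on low-fat arrays 1 and 3 (-0.18 and -0.17), while low-fat array 2 (0.04) lay just under the lowest high-fat array (0.05). The spread of single members within a diet had a median SD of 0.19 on the log2 scale, against 0.27 over all tested probe sets, with intensity not held equal.

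**Figure D4:**
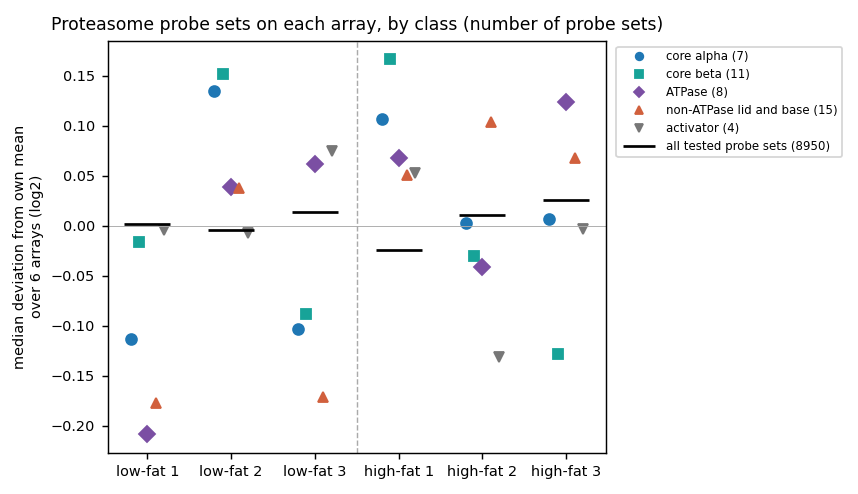
Median log2 deviation of the tested probe sets of each class from their own means over the 6 arrays (y axis), for each array (x axis); symbols are classes with their number of probe sets, and black bars are all 8950 tested probe sets. The non-ATPase class lies lowest on low-fat arrays 1 and 3, and low-fat array 2 lies above the other low-fat arrays for the alpha, beta and non-ATPase classes.

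Signs of RNA quality and of other cell types were read beside these values. The ratio of the 3' to the 5' control probe sets of Gapdh was lowest on array 3 of each diet, 0.889 for high-fat array 3 and 0.824 for low-fat array 3, against 1.04 to 1.23 for the others. The same ratio for beta-actin did not share that order: it ran from 1.62 to 1.96 on the high-fat arrays, with array 3 in between at 1.79, and among the low-fat arrays, at 1.56 or above, array 3 had the highest. Array 3 was the lowest of its diet, on both diets, for 13 of the 45 members (28.9%), among them Psma4, Psma5, Psma6, Psmd4 and Psmd7, and for 16.3% of all tested probe sets. With the Gapdh ratio, on the log2 scale, as a covariate the log2 difference of Psmd4 was 0.35 and that of Psma5 0.28. Their adjusted p-values were 0.233 and 0.330 in limma. In the same fit Psmd7 stood at 0.35, against 0.50 without the covariate, and Psmd11 (94796_at) at 0.20, against 0.37. Psmd12 stood at 0.55, against 0.46, and the Psmb5 probe set 101558_s_at at -0.03, against 0.11. Of 9 hepatocyte marker probe sets 4 had a log2 difference above 0 and 0 passed, with a range from -0.79 to 0.08. The lowest was Tat, an enzyme of tyrosine breakdown, at -0.79 with an adjusted p of 0.0742 in limma, and its high-fat arrays all lay below its low-fat arrays. Hnf4a, a hepatocyte transcription factor, stood at -0.29 with an adjusted p of 0.920 in limma. It read 666, 566 and 1772 on the high-fat and 940, 743 and 1752 on the low-fat arrays, with array 3 the highest of each diet. The urea cycle gene Cps1 stood at -0.21 and Alb, which encodes albumin, at 0.07. Ttr stood at -0.04, Fgb at 0.0037, Apoa1 at 0.05 and Serpina1c at -0.01 and 0.08. Of 13 tested macrophage marker probe sets 12 lay above 0 and 0 passed, with a range from -0.09 to 0.89. The highest was Mpeg1, at 0.89 with an adjusted p of 0.0742 in limma, and its high-fat arrays all lay above its low-fat arrays. The summed intensity of the macrophage markers, all 18 probe sets included, ran from 12861 to 14768 on the high-fat arrays. On the low-fat arrays it ran from 9420 to 12165, without overlap. The summed intensity of the 4 pancreatic acinar markers was 3564, 9988 and 1470 on high-fat arrays 1, 2 and 3. On low-fat arrays 1, 2 and 3 it was 2352, 5758 and 1595. Array 2 was the highest and array 3 the lowest of each diet. Lymphocyte markers summed to between 689 and 1167, with Cd2 and Cd3d under the floor on all arrays. Markers of biliary cells were not tested, since Krt7, Krt19 and Epcam lay under the floor on at least 5 of the 6 arrays. Of the stellate, endothelial and erythroid marker probe sets tested, 5 of 7, 2 of 5 and 1 of 2 lay above 0, and 0 passed. The stellate gene Col1a2 had log2 differences of 1.40 and -0.07 on its 2 probe sets. The first, with 4 of 6 arrays above the floor, had all high-fat above all low-fat arrays and an adjusted p of 0.308 in limma. Fewer cells of a type and less RNA per cell cannot be told apart in whole liver. The part of these markers in the proteasome values was not tested.

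Other genes of the pathway were read from lists, and none of their members passed the test. The immunoproteasome genes encode interferon-inducible replacements of the catalytic beta subunits. Psmb8 and Psmb9 had log2 differences of 0.20 and 0.41 and Psmb10 one of -0.40, with adjusted p-values of 0.774, 0.762 and 0.563 in limma. Psmb10 read 870, 844 and 672 on the high-fat and 1260, 1063 and 846 on the low-fat arrays, and the diets met at 870 and 846. For interferon response genes the tested probe sets numbered 20, of which 12 lay above 0, with a median of 0.05. The 2 with the smallest p were Tap1, which loads peptides for antigen presentation, at 0.50 and on its other probe set at 0.11, and the immunity GTPase gene Irgm1 at 0.43.

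Among 7 probe sets for proteasome assembly, 3 lay above 0 and the median was -0.12. The assembly chaperone gene Psmg3 had differences of 0.71 and -0.32 on its 2 probe sets, and the core maturation factor Pomp one of 0.12. Of 13 tested probe sets for ubiquitin receptors, shuttles and the unfoldase Vcp, 8 lay above 0. The shuttle genes Ubqln1 and Rad23b had the smallest p-values, at 0.30 and 0.25, with adjusted p-values of 0.580 and 0.611 in limma, and each had a further probe set, at 0.25 and -0.05. The list of ubiquitin precursors and activating enzymes had only Uba3 on a single-gene probe set, at 0.14.

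Of 11 tested probe sets for transcription factors of proteasome genes and their partners, 5 lay above 0 and 0 passed. Nfe2l1, the factor named above, had opposite values on its 2 probe sets. One read 389, 423 and 489 on the high-fat and 572, 494 and 622 on the low-fat arrays, wholly lower, with a log2 difference of -0.38 and an adjusted p of 0.587 in limma. The other read 1359, 1429 and 1076 against 1400, 986 and 1005, with a log2 difference of 0.20. Nfe2l2, the related stress factor, read 1087, 1375 and 1200 against 706, 1077 and 1069, a log2 difference of 0.38 with an adjusted p of 0.611 in limma. Its high-fat arrays lay above its low-fat arrays by the gap between 1087 and 1077. Mafg, a partner of both factors, had differences of -0.59 and -0.08 on its 2 probe sets.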

How the data were processed

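Liver RNA was measured on 6 arrays. The deposited table holds 1 linear intensity per probe set and array, and the authors' software is not given in the sources used here. Deposited arrays had been scaled as a whole, since their means, trimmed of 2% at each end, agree at 500.4. Of 12488 probe sets 10855 carried 1 gene symbol and 396 several, while the platform's gene table lacked 1237. Intensities under the pooled 30th percentile, 68.9, were set to it and log2 was taken. Without the 66 control probe sets, the 8950 probe sets with at least 3 arrays above the floor were fitted with limma 3.58.1 in R 4.3.3 (eBayes with a variance trend, two-sided, Benjamini-Hochberg over all 8950, threshold 0.05), as high-fat minus low-fat diet. Folds are ratios on the floored log2 scale and understate changes near the floor. The number of arrays limits the precision.

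Members, lists, tests and alternatives were chosen with earlier results of these data known. Intensities are given in full for the 3 members with the smallest p in each class, the catalytic, deubiquitinating, ubiquitin-binding and activator genes and genes whose probe sets differed in sign; Psmd9, Psma4 and the pathway genes given in full were chosen after their values were seen. In each class Psmc3ip and Psme3ip1 were kept as the rule gives them. The median of the members was 0.07 without them. The method was tested on simulated data, in 20 runs of 8950 probe sets with 200 changed, where 90.4% of those given a log2 change of 2 were called, and 5.55% of calls were false. No coordinates are given for probe sets, since no genome build is named for them. Alternatives were 17 planned settings and 2 added after the data were seen.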

Additional observations from a re-analysis of the deposited data

How the results depend on the processing

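No proteasome probe set passed an adjusted p of 0.05 in limma under any of the 19 alternatives, which covered scaling, floor, filter, variance model, replicate number, probe set choice and each array left out. The median log2 difference of the members ran from 0.018 to 0.14 over the fits without 1 array, and the non-ATPase median from 0.15 to 0.27. With both arrays numbered 3 left out, the non-ATPase median was 0.052. Over the same fits the median ran from 0.0059 to 0.14 for the alpha, from -0.033 to 0.065 for the beta, from 0.011 to 0.15 for the ATPase and from -0.14 to -0.024 for the activator class, so the beta median changed sign. Over the whole table the calls numbered 74, against 8 without a filter on dim probe sets, 20 without the variance trend, 38 without both arrays numbered 3, and 26 to 75 with each array left out. With the replicate number as a block 103 probe sets and 0 members were called, with a smallest adjusted p of 0.0931 for Psmd4. Over all 8950 tested probe sets, arrays with the same number shared deviations with r of 0.07, 0.11 and 0.31. There high-fat arrays 2 and 3 correlated best with the low-fat array of the same number, and high-fat array 1 with low-fat array 2. Over the 45 members the same-number r was -0.18, -0.28 and 0.49. For the members, high-fat array 2 correlated best with low-fat array 1, with r of 0.50. The titles give only a diet and a number, so the numbers were not taken as pairs. Whether arrays of the same number share a step was not tested. The sign changed under at least 1 alternative for 25 of the 45 members, all 25 with a difference within 1 SE of 0, and for the other 20 under none. The causes were not tested. Depth has no meaning for arrays, and the 5 members too dim to test allow no statement.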
